A study of Mus musculus with 12 samples.

Results

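Complex I of the respiratory chain was followed through the genes whose symbols begin with Nduf. The deposited count table held 52 such rows among 56441, after 3 rows whose symbols contain -PS were left out. Of the 52, 43 carry a subunit name (Ndufa, Ndufb, Ndufc, Ndufs or Ndufv and a number), 8 are the assembly factors Ndufaf1 to Ndufaf8, and Ndufab1 lies outside that split. Any count was found for 50 rows, and 48 passed the filter on low counts (39 subunits, the 8 assembly factors and Ndufab1), beside 15228 genes tested in all. Ndufa11b and Ndufb11b had 0 counts, and Ndufb4b (42 counts over all libraries) and Ndufs6b (25 counts) were not tested.

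Complex I takes electrons from NADH, passes them through a flavin and a chain of iron-sulphur clusters in its matrix arm to ubiquinone, and pumps protons through its membrane arm. The catalytic core of the matrix arm is made of nuclear-encoded subunits, the core of the membrane arm is encoded by mitochondrial DNA, and many supernumerary subunits surround both, while assembly factors help to build the enzyme and are not kept in it. In liver the enzyme reoxidises the NADH that fatty acid oxidation and the tricarboxylic acid cycle produce. The 7 mitochondrially encoded subunits were not analysed here.

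The series measured liver RNA from 12 libraries in 4 groups of 3. C57BL/6 mice received AAV8, an adeno-associated virus that reaches hepatocytes, either as vector alone (fasted vector) or carrying fumarate hydratase (fasted FH). They were injected through the tail vein at 6 to 8 weeks of age and fasted for 24 h 1 month later. Mice of the obese, leptin-deficient ob/ob strain received the same 2 preparations at the same age (ob/ob vector, ob/ob FH) and were kept on a high-fat diet for that month. All 4 groups thus carried AAV8, and strain, diet and fasting differed together between the models. The promoter that drives FH was not given in the sources used here. The labels name liver as tissue, hepatocyte as cell type and primary hepatocytes as cell line, and they do not state whether each library is a different mouse. The p-values therefore rest on library-to-library spread, which may be technical.

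Promoter windows from RefSeq (GRCm38.p6, 250 bases before to 50 after the start of the gene) were found for 42 of the 52 members. They were searched on both strands for the palindrome bound by nuclear respiratory factor 1 (NRF1), whose letters are the capitals in the sequences printed here, for CCGGAAGTG, bound by GABPA, and AANATGGCG, bound by YY1, all regulators of nuclear respiratory genes. The NRF1 letters stood in windows of 3 members (7.14%), against 0.971% of all 32851 windows. The GABPA letters stood in 1 member (2.38% against 2.03%) and the YY1 letters in 8 (19% against 2.38%). In all, 12 of the 42 members held 1 of the 3 motifs, against 5.17% of all windows. Members were counted by gene and the background by window, so the units differ. Windows with NRF1 letters belonged to Ndufa11, which rose with FH in both models, to Ndufaf4, which fell with FH in the ob/ob model, and to Ndufaf5, which was called in neither. Among members with a window, the YY1 letters were in 3 of 17 higher in both models, 1 of 6 lower in 1 or both, and 4 of the 19 others. A match describes these letters alone. The 250 bases upstream of 4 members are printed 5′ to 3′ with the NRF1 letters in capitals. Ndufa11 and Ndufaf4 are shown for their matches, at -60 and -113 from the start, and Ndufa10 and Ndufs4 as a gene that rose and a gene that fell in both models, neither with a match in the bases shown. The window of Ndufs4 did hold the YY1 letters, at 35 from the start and so beyond the bases shown. This choice was made after the values and matches were seen.
Ndufa11, chr17:56717512-56717761 (plus strand): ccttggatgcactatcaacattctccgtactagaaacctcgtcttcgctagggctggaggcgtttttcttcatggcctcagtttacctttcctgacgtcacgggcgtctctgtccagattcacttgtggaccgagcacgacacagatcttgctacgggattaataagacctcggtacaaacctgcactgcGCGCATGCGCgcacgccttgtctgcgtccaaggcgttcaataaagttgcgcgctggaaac
Ndufaf4, chr4:24897833-24898082 (plus strand): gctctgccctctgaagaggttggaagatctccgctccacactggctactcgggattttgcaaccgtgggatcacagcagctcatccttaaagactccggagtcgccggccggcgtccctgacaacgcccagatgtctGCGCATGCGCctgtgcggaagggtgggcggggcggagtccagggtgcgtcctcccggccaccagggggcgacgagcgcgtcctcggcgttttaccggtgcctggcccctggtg
Ndufa10, chr1:92473759-92474008 (minus strand): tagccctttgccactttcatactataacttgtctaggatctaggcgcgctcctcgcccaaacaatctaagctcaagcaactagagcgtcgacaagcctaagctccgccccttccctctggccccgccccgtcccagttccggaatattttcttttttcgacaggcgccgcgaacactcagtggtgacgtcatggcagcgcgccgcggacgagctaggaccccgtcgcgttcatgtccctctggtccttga
Ndufs4, chr13:114388095-114388344 (minus strand): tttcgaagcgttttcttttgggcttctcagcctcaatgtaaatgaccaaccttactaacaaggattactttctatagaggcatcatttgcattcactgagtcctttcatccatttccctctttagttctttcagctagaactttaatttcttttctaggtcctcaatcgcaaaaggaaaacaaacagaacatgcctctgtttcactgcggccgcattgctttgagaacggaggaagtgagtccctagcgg

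Levels are given in CPM, the read count normalised to the depth of its library, with totals scaled by TMM, edgeR's trimmed mean of M-values. The delivered gene was checked first. Fh1, the mouse fumarate hydratase gene, stood at 311, 408 and 238 CPM in the fasted vector libraries and at 926, 720.4 and 792 CPM in the fasted FH libraries. For ob/ob livers the values were 141, 106 and 118 CPM with the vector and 619.9, 616 and 802 CPM with FH. Every FH library was above every vector library, the order that the labels give. The log2 fold change of Fh1 was 1.35 in fasted and 2.48 in ob/ob livers, or 0.69 and 1.86 on library totals. In fasted livers Ndufa10 rose by 1.44, and 27.4% of all genes tested were higher by the test described below. A rise of this size was therefore not particular to Fh1 there. Delivered and own transcripts were not separated.

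Total counts spanned 12231828 to 14884323 over 6 libraries with vector and 19107050 to 25873379 over 6 with FH. Other features moved with FH. Long noncoding RNA took 0.814 to 1.1% of counts in the vector libraries and 0.246 to 0.306% with FH, and the TMM factors were 1.12 to 1.37 against 0.721 to 0.907. The summed level of 6 hepatocyte markers was 43428 to 65381 CPM with the vector and 129813 to 159009 CPM with FH. Markers of sinusoidal endothelium (6 genes) had sums of 230.2 to 293 CPM (fasted vector), 94.9 to 109 (fasted FH), 160.3 to 204 (ob/ob vector) and 187 to 237 CPM (ob/ob FH). Those of Kupffer cells (6) summed to 230 to 409, 138 to 159, 162 to 282 and 394 to 541 CPM in fasted vector, fasted FH, ob/ob vector and ob/ob FH libraries, and those of stellate cells (6) to 267 to 324, 141 to 245, 267 to 275 and 339 to 418 CPM. Cholangiocyte, lymphocyte and adipocyte markers (4 each) stayed under 12 CPM in sum, and no marker was at 0 throughout. The 3 ob/ob FH libraries carried 2242 to 4992 counts of Xist and 0 of 4 Y-linked genes, the reverse of the other 9, so sex and FH cannot be told apart in the ob/ob model. Dbp, a clock gene, moved with FH in the fasted model: on library totals it had 6.64, 2.69 and 5.40 CPM in vector and 46.8, 33.5 and 34.6 CPM in FH libraries. In the ob/ob model it had 48.9, 0.564 and 48.4 CPM with the vector, where replicate 2 stood alone, and 9.98, 14.5 and 33.6 CPM with FH. The part of these features in the results on complex I was not tested, and in bulk RNA fewer cells of a type and less RNA per cell cannot be told apart.

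Per kilobase of transcript the subunits lay above the assembly factors. Averaged over the 12 libraries, the 8 assembly factors had 4.77 (Ndufaf5) to 28.6 (Ndufaf8) CPM per kb, and 34 of the 41 subunits with a known transcript length lay above all of them. Among the core subunits Ndufs1 had 41.6 CPM per kb. Ndufa4, once counted as a complex I subunit and now assigned to cytochrome c oxidase, was far above the rest at 661 CPM per kb, and Ndufa6 followed at 268. Low in this order were Ndufb2 (9.38), Ndufb8 (11.6) and Ndufa11 (15.6 CPM per kb), the last a subunit at the junction of the arms. Ndufa4l2, a paralogue of Ndufa4 known for its induction by hypoxia, had 1.77 CPM per kb.

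**Figure D1:**
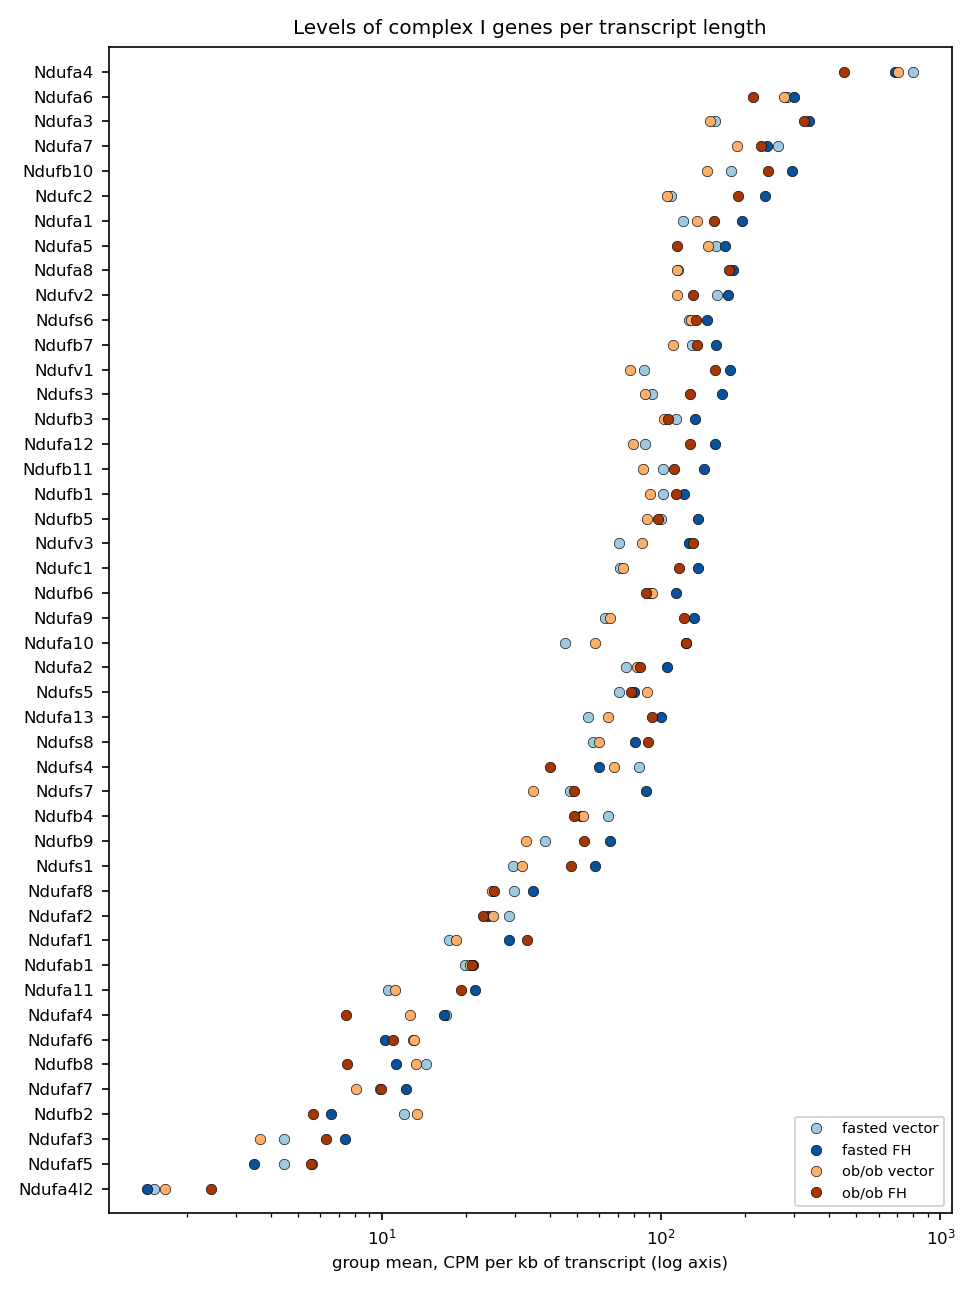
Mean level of each reported member with a known transcript length in the 4 groups, in CPM per kb of transcript on a log axis; each point is the mean of 3 libraries. Ndufa4 had the highest level and the assembly factors lay between 4.77 and 28.6 CPM per kb averaged over all libraries.

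With FH, complex I genes rose more often than they fell in both models under TMM scaling, a direction that depended on the scaling. In fasted livers 25 of the 48 tested members were higher (52.1%; 27.4% of all genes tested were higher) and 2 were lower (4.17%; 27.6% of all genes). In ob/ob livers 20 were higher (41.7%; background 25.8%) and 7 lower (14.6%; background 27.9%). A gene was called where edgeR's quasi-likelihood test gave a Benjamini-Hochberg adjusted p under 0.05 over the 15228 genes. Scaled to library totals instead, 4 members were higher and 20 lower in fasted livers (background 7.14% and 55.8%), and 2 were higher and 23 lower in ob/ob livers (6.82% and 53.3%). Between the scalings the median log2 fold change over all genes differed by -0.67 (fasted) and -0.62 (ob/ob). The median of the 48 members was 0.38 and 0.29 under TMM, against -0.04 and -0.01 for all genes, and -0.29 and -0.34 on library totals, against -0.71 and -0.63.

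Calls matched between the models for most members. Higher in both were 20 (18.9% of all genes were) and lower in both were 2, Ndufb2 and Ndufs4 (18.8% of all genes). No member was called in opposite directions, and 16 were called in neither model, counts that were not taken over all genes. Ndufa1, Ndufa2, Ndufaf7, Ndufb5 and Ndufb11 were higher in fasted livers and not called in ob/ob livers, and Ndufa4, Ndufa6, Ndufaf4, Ndufb4c and Ndufb8 were lower in ob/ob livers and not called in fasted ones. Under both scalings, 4 members were higher (7.14% of all genes) and 2 lower (27.6%) in fasted livers, and 2 were higher (6.82%) and 7 lower (27.9%) in ob/ob livers. Ndufa10 and Ndufv1 were higher, and Ndufb2 and Ndufs4 lower, in both models under both scalings. Every gene called lower under TMM (4208 in fasted and 4245 in ob/ob livers) was also called lower on library totals. For the falls, a second scaling is therefore no added support. On library totals alone, 2 members were higher in both models (3.74% of all genes) and 18 lower in both (43.4%). The estimate changed sign between the scalings for 17 members in fasted and 20 in ob/ob livers, 6 of them called under TMM in each model. Sign changes were not counted over all genes.

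**Figure D2:**
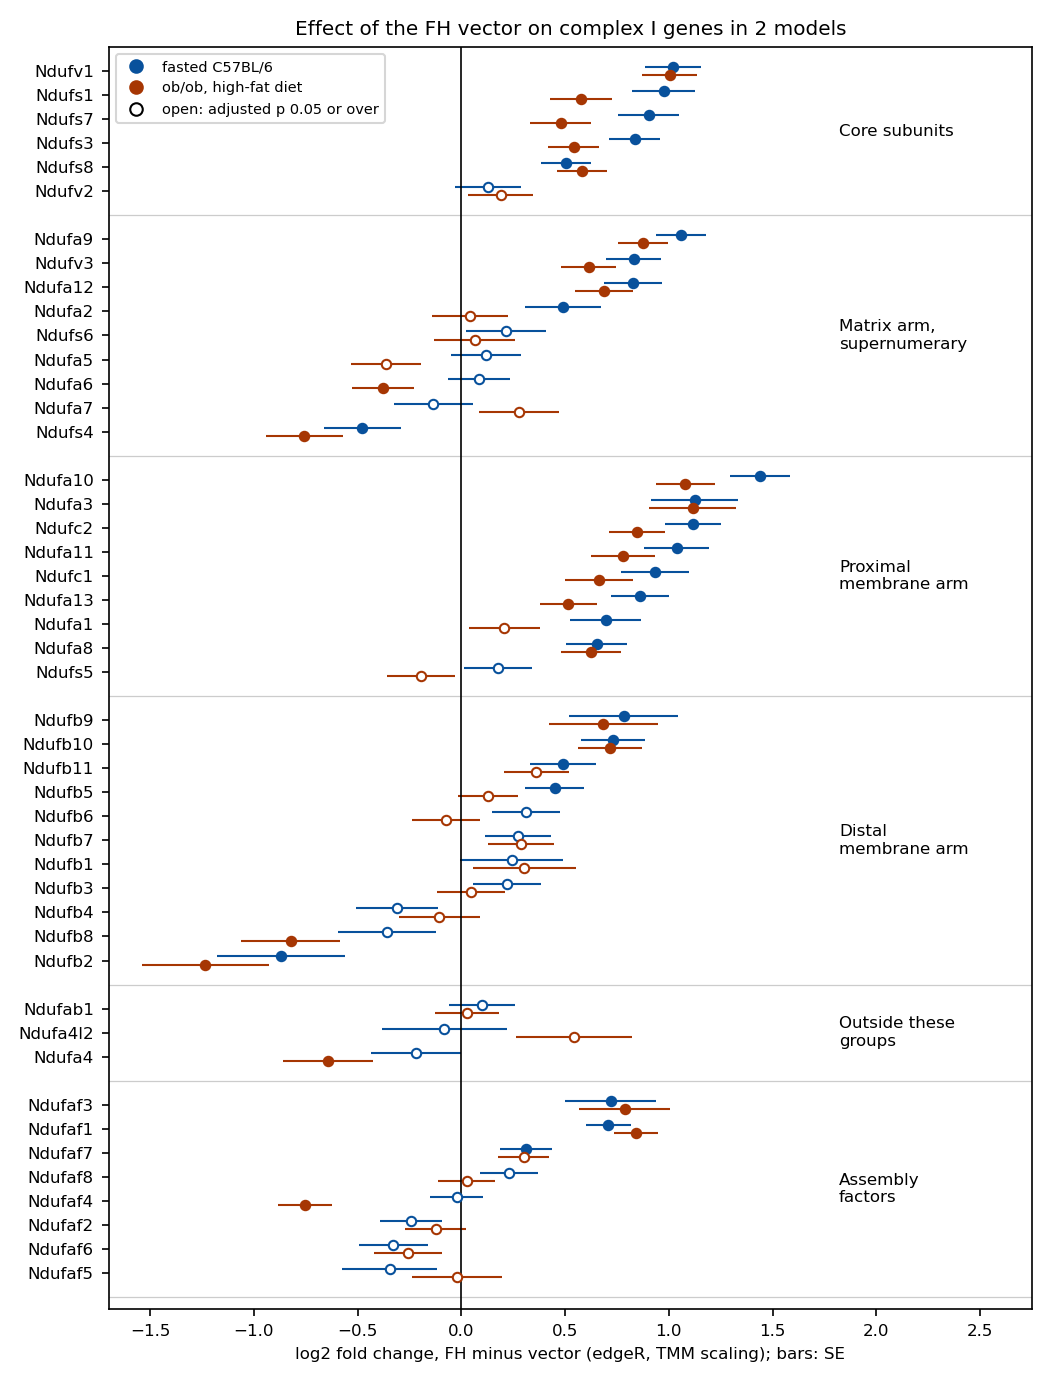
Log2 fold change, FH minus vector, of the reported members with at least 1 CPM, by place in the enzyme, in fasted C57BL/6 (blue) and ob/ob (red) livers; bars are SE and open points were not called at an adjusted p under 0.05. Core and proximal membrane arm genes lay mostly to the right, with Ndufa10 at 1.44 and 1.08, and Ndufb2, Ndufs4, Ndufb8 and Ndufaf4 reached the lowest values in ob/ob livers.

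Of the 7 core subunits, which bind NADH, carry the iron-sulphur clusters and form the ubiquinone site, 6 were higher in each model and Ndufv2 was not called in either. Their median log2 fold change was 0.90 in fasted and 0.58 in ob/ob livers under TMM, and 0.23 and -0.05 on library totals. Ndufv1 binds NADH and the flavin. It stood at 136, 137 and 100.5 CPM (125 ± 21, SD, n = 3) in fasted vector and 260.4, 248 and 251 CPM (253 ± 6.34, SD, n = 3) in fasted FH libraries. In ob/ob livers the values were 113, 102 and 118 CPM (111 ± 7.92, SD, n = 3) and 232, 218 and 219 CPM (223 ± 8.05, SD, n = 3). No FH library overlapped a vector library in either model. The gene was 2.03-fold higher in fasted livers (log2 fold change 1.02, SE 0.13, edgeR adjusted p = 3.66e-05) and 2.00-fold higher in ob/ob livers (1.00, SE 0.13, adjusted p = 4.15e-05), and on library totals it was still higher, by 0.36 and 0.38.

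Ndufv2, the partner of Ndufv1 in the flavin-bearing tip and the carrier of an iron-sulphur cluster, was called in neither model under TMM scaling. Fasted vector libraries held 182, 122 and 135 CPM (147 ± 31.8, SD, n = 3) and fasted FH libraries 163, 146 and 173 CPM (160.5 ± 13.9, SD, n = 3), with overlap. Its ob/ob libraries had 114, 103 and 99.0 CPM (105 ± 8.06, SD, n = 3) with the vector and 139.7, 114 and 108 CPM (120.4 ± 17, SD, n = 3) with FH, again overlapping. Its log2 fold changes were 0.13 (SE 0.16, edgeR adjusted p = 0.505) and 0.19 (SE 0.16, adjusted p = 0.331), and on library totals it was lower in both (-0.54 and -0.44).

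The ratio of counts of 2 genes within a library does not depend on the scaling, and it separated this pair. Ndufv1 had 0.747, 1.13 and 0.743 counts per count of Ndufv2 in fasted vector replicates 1 to 3 and 1.60, 1.70 and 1.45 in fasted FH replicates. The ratio was 0.987, 0.996 and 1.19 in ob/ob vector and 1.66, 1.92 and 2.03 in ob/ob FH replicates. All 6 FH libraries had a higher ratio than all 6 vector libraries. These ratios, and those given further on, were picked after the values were seen and are descriptions with no test.

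Ndufs7 carries an iron-sulphur cluster close to the site where ubiquinone is reduced. It went from 41.1, 34.3 and 31.6 CPM (35.7 ± 4.91, SD, n = 3) to 68.5, 57.4 and 74.3 CPM (66.7 ± 8.61, SD, n = 3) in fasted livers, and from 25.1, 30.5 and 23.5 CPM (26.4 ± 3.69, SD, n = 3) to 41.3, 34.6 and 34.6 CPM (36.8 ± 3.87, SD, n = 3) in ob/ob livers. The groups did not overlap, and the log2 fold changes were 0.90 (edgeR adjusted p = 0.000195) and 0.48 (adjusted p = 0.014). The second was not called if FH replicate 1 of ob/ob was dropped (0.38, adjusted p = 0.0788). On library totals neither was called (0.23 and -0.15).

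Ndufs1, Ndufs3 and Ndufs8 were called higher in both models without overlap of the libraries. Ndufs1, the largest carrier of iron-sulphur clusters, stood at 74.5, 89.5 and 64.9 CPM in fasted vector, 160.3, 155 and 135 in fasted FH, 82.4, 67.9 and 96.0 in ob/ob vector and 129.6, 116 and 122 CPM in ob/ob FH libraries. Its log2 fold change was 0.98 (edgeR adjusted p = 0.000134) in fasted and 0.58 (adjusted p = 0.00548) in ob/ob livers. Ndufs3, which helps to hold the ubiquinone module, rose by 0.84 (mean 96.6 to 172 CPM) and 0.54 (91.3 to 133 CPM). For Ndufs8, another carrier of iron-sulphur clusters, the rises were 0.51 (55.5 to 78.9 CPM) and 0.58 (58.3 to 87.5 CPM). On library totals none of the 3 was called: in fasted livers Ndufs1 stood at 0.31 (adjusted p = 0.0674), Ndufs3 at 0.17 and Ndufs8 at -0.17, and in ob/ob livers all 3 estimates were below 0.

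The 9 supernumerary subunits of the matrix arm split. In fasted livers 4 were higher, 1 was lower and 4 were not called, and in ob/ob livers 3 were higher and 2 lower, with medians of 0.21 and 0.06 (-0.46 and -0.57 on library totals). Ndufa9, which lies over the ubiquinone channel, rose from 87.5, 76.5 and 69.2 CPM (77.7 ± 9.25, SD, n = 3) to 166, 158 and 162 CPM (162 ± 4.18, SD, n = 3) in fasted livers and from 82.3, 74.5 and 86.3 CPM (81.0 ± 6.02, SD, n = 3) to 162, 147 and 138 CPM (149 ± 11.8, SD, n = 3) in ob/ob livers. No libraries overlapped, and the log2 fold changes were 1.06 (SE 0.12, edgeR adjusted p = 1.41e-05) and 0.88 (SE 0.12, adjusted p = 5.56e-05). Ndufv3 (0.83 and 0.61) and Ndufa12 (0.83 and 0.69) were also higher in both models, and Ndufa2 in fasted livers alone (0.49, and 0.04 in ob/ob livers). On library totals Ndufa9 was called higher in fasted livers alone, and Ndufv3 and Ndufa12 were called in neither model. Ndufa2 in both models (-0.18 and -0.59) and Ndufv3 in ob/ob livers (-0.02) were below 0 there. Ndufa6 was lower in ob/ob livers (-0.38, edgeR adjusted p = 0.0451, with overlapping libraries and lost without any of 4 of the 6), and Ndufa5, Ndufa7 and Ndufs6 were not called in either.

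Ndufs4, a matrix arm subunit needed for a stable enzyme and often deleted to model complex I deficiency, moved the other way. It held 183, 104 and 138 CPM (142 ± 40.0, SD, n = 3) in fasted vector and 105, 90.4 and 111 CPM (102 ± 10.3, SD, n = 3) in fasted FH libraries. Ob/ob vector and FH libraries held 129, 111 and 103 CPM (115 ± 13.4, SD, n = 3) and 79.1, 62.0 and 62.4 CPM (67.8 ± 9.76, SD, n = 3). The fasted groups overlapped (vector replicate 2 lay below 2 of the FH libraries), while the ob/ob groups did not overlap. The gene fell by 0.48 on the log2 scale (SE 0.19, edgeR adjusted p = 0.0421) in fasted livers and by 0.76 (SE 0.19, adjusted p = 0.00381) in ob/ob livers. In fasted livers the call was lost when fasted vector replicate 1 or 3, or any of the fasted FH replicates, was left out, with -0.30 (adjusted p = 0.149) without vector replicate 1.

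The proximal membrane arm, the part of the proton-pumping arm next to the junction, was mostly higher with FH under TMM scaling. Of its 9 supernumerary subunits 8 were higher in fasted livers and 7 in ob/ob livers, and none was lower. The medians were 0.93 and 0.66, or 0.26 and 0.03 on library totals. Ndufa10, which resembles a nucleoside kinase, stood at 98.7, 98.8 and 75.7 CPM (91.1 ± 13.3, SD, n = 3) in fasted vector and 251, 228 and 263 CPM (247 ± 17.9, SD, n = 3) in fasted FH libraries. The ob/ob libraries held 121, 101 and 129 CPM (117 ± 14.3, SD, n = 3) and 272, 241 and 231 CPM (248 ± 21.5, SD, n = 3). Every FH library exceeded every vector library. The rise was 2.71-fold in fasted livers (log2 1.44, SE 0.14, edgeR adjusted p = 5.58e-06) and 2.11-fold in ob/ob livers (1.08, SE 0.14, adjusted p = 4.12e-05), and it stayed above 0 on library totals (0.77 and 0.45, both called).

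Ndufa3 and Ndufc2, small subunits of this arm, also rose in both models. For Ndufa3 the libraries held 72.4, 35.7 and 55.7 CPM in fasted vector, 106, 114 and 137 in fasted FH, 59.1, 50 and 47.7 in ob/ob vector and 131, 109.7 and 100.1 CPM in ob/ob FH. The log2 fold changes were 1.12 (SE 0.21, edgeR adjusted p = 0.000549) and 1.12 (SE 0.21, adjusted p = 0.000599), with no overlap. For Ndufc2 they were 1.12 (mean 51.0 to 111 CPM, adjusted p = 2.19e-05) and 0.84 (49.1 to 88.2 CPM, adjusted p = 0.000177). Ndufa8, Ndufa11, Ndufa13 and Ndufc1 were higher in both models, by 0.65, 1.04, 0.86 and 0.93 in fasted and 0.63, 0.78, 0.52 and 0.66 in ob/ob livers. On library totals Ndufc2 was called in fasted livers alone, and Ndufa3, Ndufa8, Ndufa11, Ndufa13 and Ndufc1 in neither model. Ndufa8 in fasted livers (-0.02) and Ndufa13 in ob/ob livers (-0.11) were below 0 there. Ndufa1 was higher in fasted livers (0.70) and stood at 0.21 (adjusted p = 0.323) in ob/ob livers, where it was lower on library totals (-0.42), and Ndufs5 was not called. Ndufa1 and Ndufb11 are the 2 members on the X chromosome, and the sex-linked genes named above differed between the ob/ob groups.

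In the distal membrane arm, the far end of the proton pump, calls were fewer. Of the 11 tested Ndufb subunits with a place there, 4 were higher and 1 lower in fasted livers, and 2 were higher and 2 lower in ob/ob livers (medians 0.27 and 0.13, or -0.40 and -0.50 on library totals). Ndufb10 (0.73 and 0.72) and Ndufb9 (0.78 and 0.68) were higher in both models, and neither was called on library totals. Ndufb5 (0.45) and Ndufb11 (0.49) were higher in fasted livers, both below 0 there on library totals (-0.22 and -0.18). Leaving out any of fasted vector replicates 2 and 3 and fasted FH replicate 3 ended the fasted calls of Ndufb5, Ndufb9 and Ndufb11, and any of 5 of the 6 ob/ob libraries ended the ob/ob call of Ndufb9. Ndufb1, Ndufb3, Ndufb4, Ndufb6 and Ndufb7 were not called.

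Ndufb2 and Ndufb8 were the lower genes of this arm, both at low levels. Ndufb2 had 4.47, 5.08 and 6.84 CPM (5.46 ± 1.23, SD, n = 3) in fasted vector and 3.04, 2.07 and 3.80 CPM (2.97 ± 0.868, SD, n = 3) in fasted FH libraries. The ob/ob libraries had 7.18, 7.14 and 3.87 CPM (6.06 ± 1.90, SD, n = 3) and 3.31, 1.92 and 2.49 CPM (2.57 ± 0.699, SD, n = 3). The groups did not overlap, and the gene fell by 0.87 (SE 0.31, edgeR adjusted p = 0.0287) and 1.23 (SE 0.31, adjusted p = 0.00396) on the log2 scale. The fasted call was lost without vector replicate 3 (-0.66, adjusted p = 0.129), FH replicate 1 or FH replicate 2. In the annotation used here (GENCODE M21) Ndufb2 overlaps Gm42420 on the same strand, so its counts are uncertain. Ndufb8, whose protein is a common blot marker of assembled complex I, held 10.8, 9.18 and 7.0 CPM in ob/ob vector and 6.21, 3.80 and 5.25 CPM in ob/ob FH libraries. It fell there by 0.82 (SE 0.24, edgeR adjusted p = 0.01), a call lost without vector replicate 1 or FH replicate 2, and stood at -0.36 (adjusted p = 0.212) in fasted livers. It overlaps Gm20538 on the same strand. Ndufb4c, with under 1 CPM on average, was also lower in ob/ob livers.

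**Figure D3:**
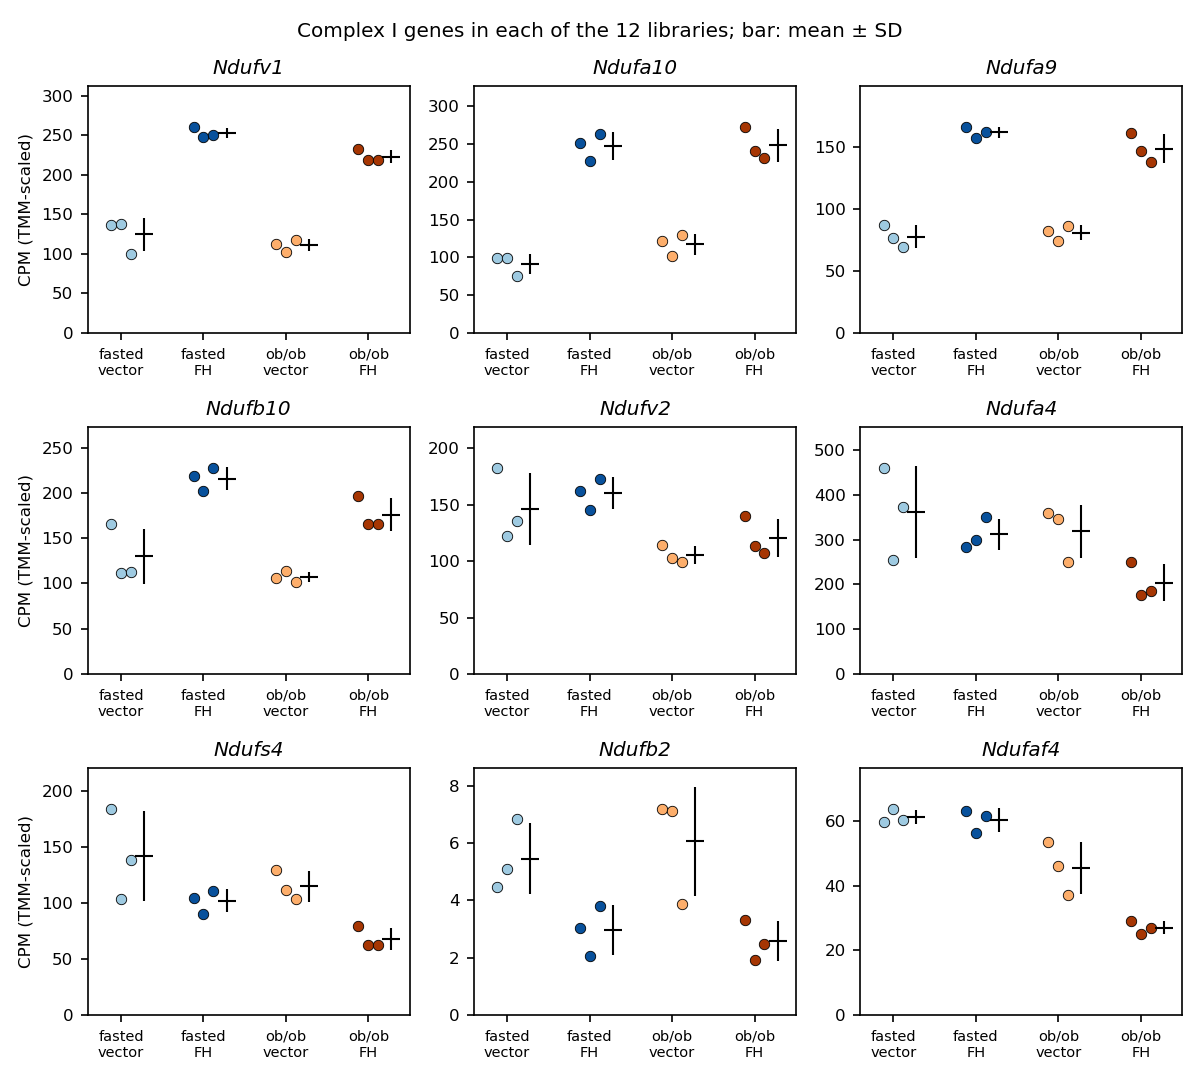
CPM (TMM-scaled) of 9 members in each of the 12 libraries, with the mean ± SD of each group of 3 beside its points; every vertical axis starts at 0. Ndufv1, Ndufa10 and Ndufa9 separated FH from vector libraries in both models, Ndufv2 overlapped, and Ndufaf4 was low in the ob/ob FH libraries.

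Shares of the counts of all 52 Nduf rows, which no scaling alters, differed between vector and FH libraries for most groups of members. The proximal arm took 14.8 to 16.2% of all Nduf counts in fasted vector and 20.7 to 21.8% in fasted FH libraries. Its ob/ob shares were 16.8 to 19.6% with the vector and 23.3 to 23.9% with FH. The core took 21.3 to 27.1% and 26.9 to 28.5% in fasted livers, with overlap, and 21.5 to 24.5% and 26.6 to 28.3% in ob/ob livers, without. Matrix arm supernumerary subunits went from 21.4 to 23.8% to 19.6 to 19.8% and from 22.5 to 23.1% to 19.4 to 20.2%, and the 8 assembly factors from 4.44 to 5.64% to 3.81 to 4.16% and from 4.67 to 4.76% to 3.75 to 4.10%. The distal arm overlapped between vector and FH in both models, at 19.2 to 21.9% and 19.2 to 19.6%, and 18.5 to 20.9% and 18.5 to 19.2%. These shares were computed after the fold changes were seen and were not tested. Their total includes Ndufa4, assigned above to cytochrome c oxidase. It had 6478, 4253 and 5599 of 53021, 44877 and 44658 Nduf counts in fasted vector libraries. With FH it had 4023, 4484 and 6525 of 62297, 61728 and 88062. A lower share of Ndufa4 raises the other shares, and shares without it were not computed. The gains above are therefore not shifts within the enzyme alone. Summed over the 52 rows, Nduf genes took 0.302 to 0.429% of all counts in vector libraries and 0.302 to 0.340% in FH libraries.

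The assembly factors were divided. Of 8, 3 were higher in fasted livers, and 2 were higher and 1 lower in ob/ob livers, with medians of 0.10 and 0.00 (-0.57 and -0.62 on library totals, where 0 were higher and 6 lower in each model). Ndufaf1, which works with Ecsit, Acad9 and Tmem126b in the complex that assembles the membrane arm, rose in both. It held 26.2, 25.6 and 23.9 CPM (25.2 ± 1.21, SD, n = 3) in fasted vector and 39.0, 42.8 and 42.0 CPM (41.3 ± 1.98, SD, n = 3) in fasted FH libraries. The ob/ob values were 27.6, 25.3 and 27.4 CPM (26.8 ± 1.27, SD, n = 3) and 51.5, 43.2 and 49.5 CPM (48.0 ± 4.33, SD, n = 3). No libraries overlapped, and the log2 fold changes were 0.71 (SE 0.11, edgeR adjusted p = 0.000114) and 0.84 (SE 0.11, adjusted p = 2.87e-05). On library totals Ndufaf1 was called in neither model (0.04 and 0.22).

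Ndufaf3 and Ndufaf4 act together early in the building of the ubiquinone module, and in the ob/ob livers they were called in opposite directions under TMM scaling. Ndufaf3 had 7.44, 6.34 and 6.11 CPM in fasted vector, 13.9, 8.36 and 10.6 in fasted FH, 4.52, 4.98 and 6.74 in ob/ob vector and 10.8, 7.54 and 9.81 CPM in ob/ob FH libraries. It was higher by 0.72 (SE 0.22, edgeR adjusted p = 0.0131, lost without fasted FH replicate 1) and 0.79 (SE 0.22, adjusted p = 0.00803). On library totals Ndufaf3 was called in neither model (0.05 and 0.16). Ndufaf4 had 60.0, 63.8 and 60.4 CPM (61.4 ± 2.09, SD, n = 3) in fasted vector and 63.3, 56.4 and 61.8 CPM (60.5 ± 3.64, SD, n = 3) in fasted FH libraries, which overlapped. In ob/ob livers it had 53.5, 46.2 and 37.2 CPM (45.6 ± 8.15, SD, n = 3) with the vector and 29.1, 25.2 and 26.9 CPM (27.1 ± 1.96, SD, n = 3) with FH. The 3 ob/ob FH libraries were the lowest of the 12, and all ob/ob vector libraries lay below all fasted ones. Its log2 fold change with FH was -0.02 (SE 0.13, adjusted p = 0.892) in fasted and -0.75 (SE 0.13, adjusted p = 0.000336) in ob/ob livers, and on library totals it was lower in fasted livers too (-0.70, adjusted p = 0.000628). Per count of Ndufaf1 there were 2.29, 2.49 and 2.53 counts of Ndufaf4 in fasted vector, 1.62, 1.32 and 1.47 in fasted FH, 1.94, 1.83 and 1.36 in ob/ob vector and 0.565, 0.583 and 0.544 in ob/ob FH libraries.

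The other 5 assembly factors gave 1 call. Ndufaf7, a methyltransferase needed for complex I assembly, had 17.2 ± 2.02 and 21.4 ± 1.65 CPM (SD, n = 3) in fasted vector and FH libraries, and 14.1 ± 1.06 and 17.3 ± 0.837 CPM in ob/ob livers. It was higher by 0.31 in fasted livers (edgeR adjusted p = 0.0479), a call that 5 of the 6 fits without 1 library and DESeq2 did not make, and on library totals it was called in the opposite direction (-0.36, adjusted p = 0.0261). It stood at 0.30 (adjusted p = 0.0552) in ob/ob livers, and was called lower there on library totals (-0.32, adjusted p = 0.0453). Ndufaf2, which holds the place of Ndufa12 until late in assembly, stood at -0.24 and -0.12 (adjusted p = 0.182 and 0.499). Ndufaf5, which hydroxylates Ndufs7, stood at -0.35 and -0.02 (adjusted p = 0.216 and 0.949). Its partner Ndufaf8 stood at 0.23 and 0.03 (adjusted p = 0.174 and 0.892), and Ndufaf6, a factor of early assembly, at -0.33 and -0.26 (adjusted p = 0.109 and 0.201).

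Complex I assembly factors with other names were also divided. Of 10 tested, 4 were higher in fasted livers, and 3 were higher and 1 lower in ob/ob livers, with medians of 0.09 and 0.07. Among the partners of Ndufaf1, Ecsit rose by 0.71 and 0.60 (edgeR adjusted p = 0.000115 and 0.000446) and Acad9 by 0.49 and 0.54 (adjusted p = 0.0369 and 0.0227). Tmem126b, the membrane anchor of that complex, stood at -0.22 (adjusted p = 0.17) in fasted livers and fell by 0.78 (adjusted p = 0.000244) in ob/ob livers. Nubpl, which supplies iron-sulphur clusters to complex I, rose by 0.92 and 0.72 (adjusted p = 0.000518 and 0.0025). On library totals Ecsit, Acad9 and Nubpl were not called in either model, and Tmem126b was lower in both.

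Ndufa4, Ndufa4l2 and Ndufab1 were in none of the groups of genes above, Ndufab1 by its name alone. Of these, Ndufa4 fell in ob/ob livers. It held 459, 254 and 372 CPM (362 ± 103, SD, n = 3) in fasted vector and 284, 299.8 and 349.6 CPM (311 ± 34.1, SD, n = 3) in fasted FH libraries, and 359, 346 and 249 CPM (318 ± 59.8, SD, n = 3) and 251, 175 and 186 CPM (204 ± 40.7, SD, n = 3) in the ob/ob groups. Groups overlapped in both models, and on library totals the gene was lower in both (-0.90 and -1.28). The log2 fold changes were -0.22 (SE 0.22, edgeR adjusted p = 0.409) and -0.64 (SE 0.22, adjusted p = 0.0224), the second lost without ob/ob vector replicate 1 (adjusted p = 0.0862) or ob/ob FH replicates 2 (0.0959) or 3 (0.0702). Ndufa4l2 lay at 1.85, 1.42 and 1.41 CPM in ob/ob vector and 1.66, 2.44 and 2.72 CPM in ob/ob FH libraries (0.54, adjusted p = 0.116) and stood at -0.08 (adjusted p = 0.831) in fasted livers. Ndufab1, the mitochondrial acyl carrier protein, also part of fatty acid synthesis, had 28.1 ± 4.65, 30.1 ± 4.77, 29.2 ± 1.30 and 29.8 ± 4.62 CPM (SD, n = 3) in fasted vector, fasted FH, ob/ob vector and ob/ob FH libraries and was not called (0.10 and 0.03).

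**Figure D4:**
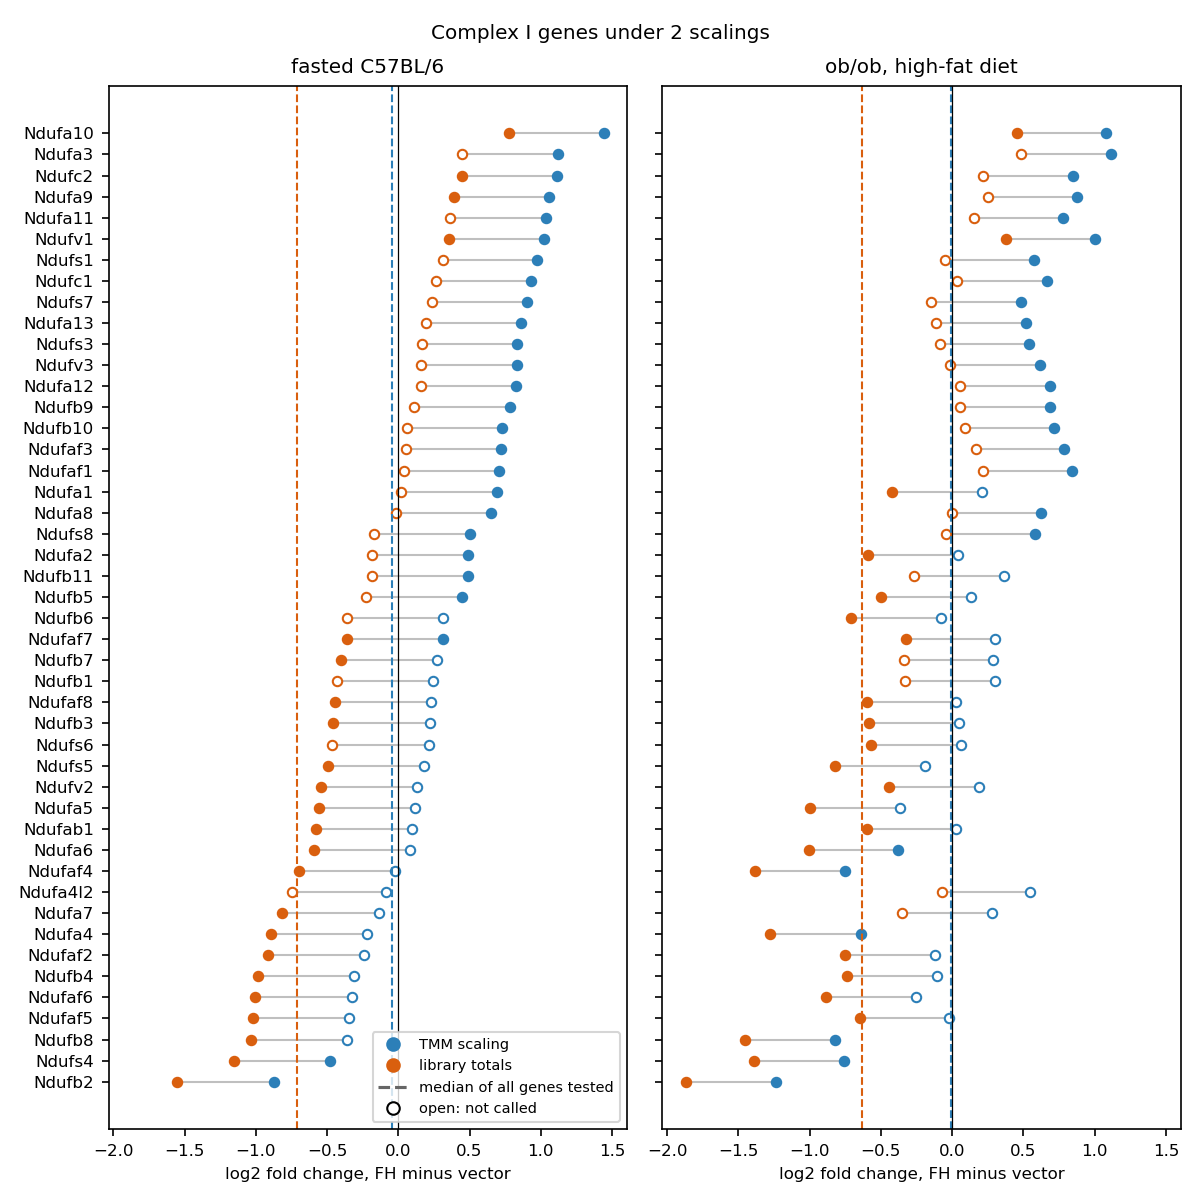
Log2 fold change, FH minus vector, of the reported members with at least 1 CPM under TMM scaling (blue) and on library totals (orange) in each model; filled points were called and dashed lines mark the median of all genes tested. Each member shown moved left on library totals, where 2 members (Ndufa10 and Ndufv1) were called higher in both models and 18 of the 48 tested were called lower in both, Ndufb2 and Ndufs4 among them.

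The other respiratory complexes were counted in the same way. Of 43 tested nuclear subunits of complexes II to V, 19 were higher and 2 lower in fasted livers, and 18 were higher and 5 lower in ob/ob livers (medians 0.34 and 0.15), while on library totals 9 were higher and 18 lower, and 5 higher and 25 lower. Sdha, the flavoprotein of succinate dehydrogenase, rose by 1.48 and 0.97 (edgeR adjusted p = 3.49e-06 and 5.38e-05), Uqcrc1 of complex III by 1.18 and 0.97, and Atp5g1 of ATP synthase by 1.10 and 0.95. Whether complex I differed from them was not tested. Of 8 regulators of nuclear respiratory genes, 1 was higher in fasted livers, Yy1 at 0.53 (adjusted p = 0.00436), and 2 were lower in ob/ob livers, Gabpa at -0.37 (adjusted p = 0.00858) and Gabpb1 at -0.46 (adjusted p = 0.0146). On library totals 4 of the 8 were lower in fasted and all 8 in ob/ob livers. Nrf1 stood at 0.32 and 0.16 (adjusted p = 0.139 and 0.467).

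Whether the effect of FH differed between the models was tested directly. The difference, ob/ob minus fasted, was called for 1 member, lower in ob/ob, and for 0 in the other direction (backgrounds 3.66% and 4.77%). At an unadjusted p under 0.05 edgeR had 2 members, a count not taken over all genes, and DESeq2 called 1 lower and 0 higher. The called member was Ndufaf4, whose FH effect was 0.73 log2 units lower in ob/ob than in fasted livers (difference -0.73, SE 0.18, edgeR adjusted p = 0.028, and -0.69 on library totals with adjusted p = 0.0462). That call was lost when any of 8 of the 12 libraries was left out: fasted vector replicate 1 or 3, fasted FH replicate 1 or 3, ob/ob vector replicate 1, or any ob/ob FH replicate. Without them the difference ranged from -0.74 to -0.61, with adjusted p up to 0.0897. Counts thinned to equal depth gave -0.65 (adjusted p = 0.061). Since the ob/ob FH libraries alone differed in Xist and Y-linked counts, sex and FH cannot be told apart in this difference. For 36 of the 48 members the estimated FH effect was lower in ob/ob livers, a count not taken over all genes. The median difference was -0.18, against -0.11 over all genes tested. Fh1 itself differed by 1.13 in the other direction (adjusted p = 0.0267). The genes called in 1 model alone, other than Ndufaf4, are therefore not shown to differ between the models.

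With the vector alone, few members differed between ob/ob high-fat and fasted livers. Of 48, 1 was lower in ob/ob livers (Ndufaf4, -0.43, SE 0.13, edgeR adjusted p = 0.0369) and 0 were higher, against backgrounds of 8.18% and 9.36%. At an unadjusted p under 0.05 there were 6, a count not taken over all genes, and DESeq2 called 3 lower and 0 higher. Ndufaf4 stood at -0.22 (adjusted p = 0.275) on library totals. Its call was lost without any one of the fasted vector replicates or without ob/ob vector replicate 3 (-0.30, adjusted p = 0.151). On library totals 4 members were higher (8.33%; background 18%) and 0 lower (background 4.21%).

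With FH, more members differed between the models, as did more of all genes tested. The ob/ob FH and fasted FH libraries also differed in Xist and Y-linked counts. Sex therefore cannot be told apart from strain, diet and fasting in this comparison. The ob/ob FH libraries were lower than the fasted FH libraries for 9 members (18.8%; background 21.6%) and higher for 2 (4.17%; background 18.6%). On library totals the balance turned, with 4 higher (8.33%; background 26.5%) and 2 lower (4.17%; background 9.69%). The lower ones were Ndufaf4 (-1.16, SE 0.13, edgeR adjusted p = 3.83e-05), Ndufs7 (-0.86, SE 0.15, adjusted p = 0.000589), Ndufa4 (-0.61), Ndufs4 (-0.59), Ndufa5, Ndufa6, Ndufaf8, Ndufb5 and Ndufs3. Ndufaf4 and Ndufs7 kept their calls without any 1 library and on library totals (-0.91 and -0.61), and the other 7 were called in neither every such fit nor on library totals. Ndufa4l2 (0.76, adjusted p = 0.0486) and Ndufaf5 (0.67, adjusted p = 0.0294) were higher in ob/ob FH livers, each lost without any of at least 5 of the 6 libraries. This comparison shares its libraries with those of FH against vector. Of the regulators, 6 of 8 were lower in ob/ob FH than in fasted FH livers (2 on library totals), with Ppargc1a, the coactivator of mitochondrial biogenesis, at -2.03 (adjusted p = 0.000137), Esrra at -1.04 (adjusted p = 0.00062) and Gabpa at -0.55 (adjusted p = 0.00124). With the vector, 2 of the 8 were lower in ob/ob livers (2 on library totals). The difference of the FH effects was called for 1 of the 8, lower in ob/ob livers (0 on library totals).

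**Figure D5:**
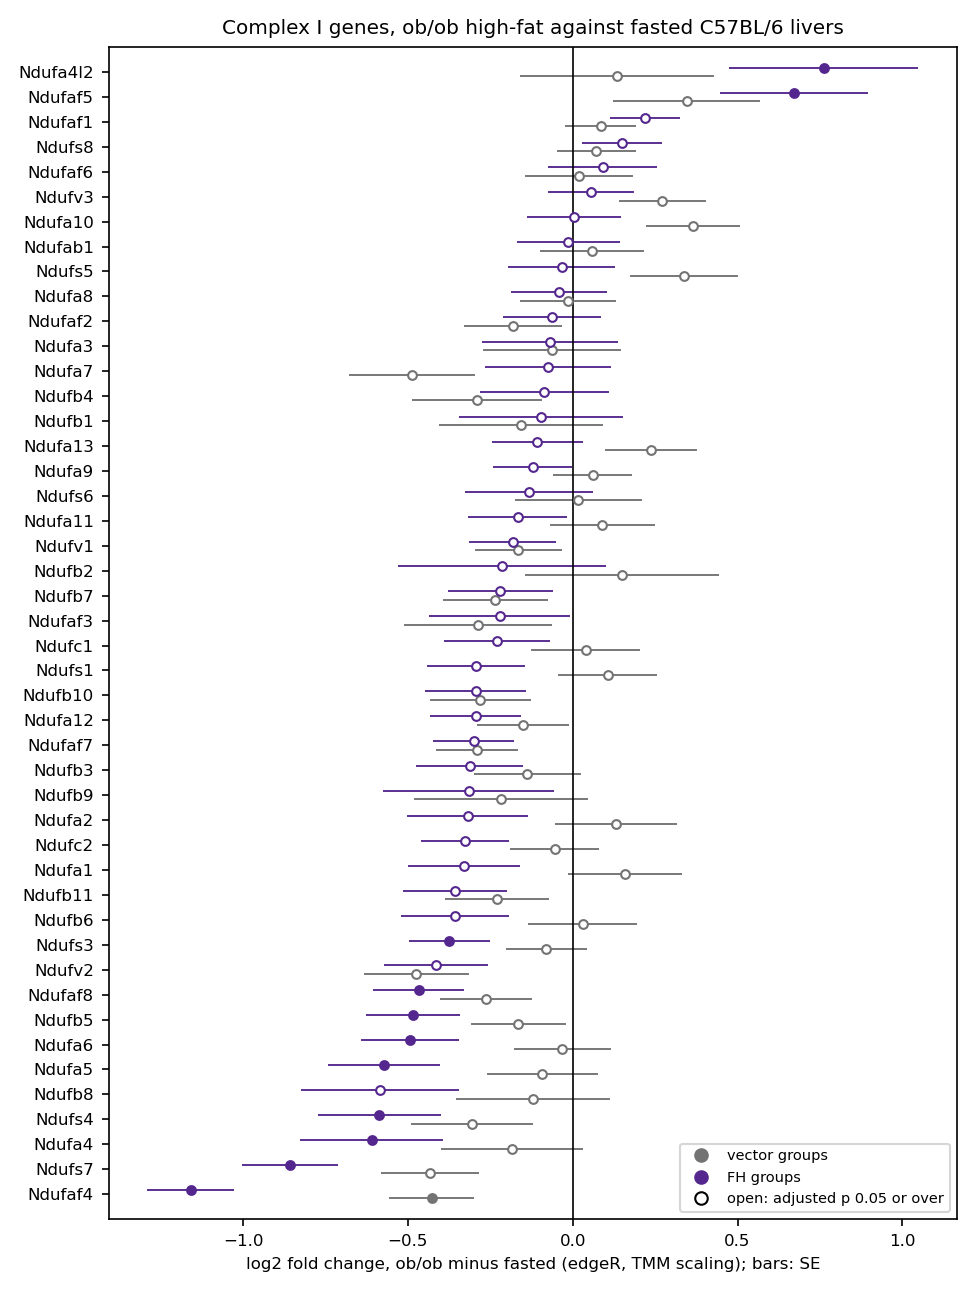
Log2 fold change, ob/ob high-fat minus fasted C57BL/6, of the reported members with at least 1 CPM in vector (grey) and FH (purple) livers; bars are SE and open points were not called. Ndufaf4 lay lowest in the FH livers, at -1.16, and was the 1 member called with the vector, at -0.43.

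Members moved together between replicates of a group. In the fasted vector group replicate 1 was the highest of 3 for 41 of the 48 tested members and replicate 2 the lowest for 31, while replicate 1 was highest for 36.2% of all genes tested. In the fasted FH group replicate 3 was highest for 31 members (37.2% of all genes) and replicate 2 lowest for 35 (34.2%). In the ob/ob FH group replicate 1 was highest for 43 (35.8%). Cytosolic ribosomal protein genes, another set of short abundant transcripts, took 3.64, 1.99 and 2.99% of counts in fasted vector replicates 1, 2 and 3, and 1.5, 1.60 and 1.71% in the fasted FH replicates. They took 2.33, 3.35 and 2.00% in ob/ob vector replicates and 1.34, 1.25 and 1.25% in ob/ob FH replicates. In the ob/ob vector group the orders differed, since replicate 1 was highest for 28 members. The part of the replicate order in the results was not tested. The median coefficient of variation of the members was 18.1% in fasted vector libraries, 9.52% in fasted FH, 11.5% in ob/ob vector and 12.2% in ob/ob FH libraries, against 17.7, 15, 17.7 and 12.1% for all genes tested. Ndufb9 varied most in fasted vector libraries (44.9%), and Ndufaf4 least (3.41%).

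Transcript length and base composition were set beside the fold changes as descriptions. Across the 48 members, which are not independent replicates, Spearman's rho between length and log2 fold change was 0.13 in fasted and 0.24 in ob/ob livers, against -0.03 and -0.06 over 12714 protein-coding genes. For GC content it was 0.28 and 0.32, against 0.19 and 0.31. The 16 members of lowest GC content (39.5 to 50%) had medians of 0.18 and 0.09, and the 16 of highest (54.4 to 63.2%) 0.69 and 0.56. Protein-coding genes in the same ranges had medians of -0.03 and -0.11 in the lowest and 0.21 and 0.35 in the highest. Near-identical copies elsewhere in the genome (at least 95% identity over at least 50% of the transcript) exist for Ndufa12, Ndufb11, Ndufb4c, Ndufs3, Ndufs5 and Ndufs6, so reads could be split between copies, and Ndufb9 overlaps Gm49356 on the same strand. Overlaps on the opposite strand were longest for Ndufaf2 (1955 bases), Ndufb5 (616), Ndufs1 (498), Ndufa13 (375) and Ndufb2 (302). The use of strand in counting was not given, so reads of those neighbours may be included. Values of the genes named here are uncertain to that extent.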

How the data were processed

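RNA of 12 mouse liver libraries was analysed from the authors' deposited table of raw counts per gene. Per the labels' protocols, 1 μg of total RNA extracted with TRIzol went into a stranded mRNA kit from Illumina. Per the submitters' processing notes, STAR 2.7.11a and GRCm39 were used. Not given in the sources used here are the counting program, the gene models and the use of strand. Column names were matched to samples through their titles.

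Genes were filtered with filterByExpr (10 counts in the smallest group, 15 in total) and tested with edgeR 4.0.16 in R 4.3.3 (quasi-likelihood F test, TMM scaling, 4 groups in 1 model, 8 residual degrees of freedom), with Benjamini-Hochberg adjustment over 15228 genes. Each SE belongs to a log2 fold change. DESeq2 1.42.0 was an alternative. The steps were tested on simulated data. Lengths, copies and overlaps came from GENCODE M21 (GRCm38), matched by symbol for 50 of 52 members, and length is that of the transcript of median length. Promoter windows came from RefSeq (GRCm38.p6).

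The members, gene lists and tests were chosen with earlier results of these data known. Named with values were Fh1, the core subunits, Ndufaf1 to Ndufaf8, Ndufa4, Ndufa4l2 and Ndufab1 whatever their p, per comparison the 4 largest rises and falls among called members, members called for the difference of the FH effects, and up to 3 called genes per list by smallest adjusted p. Further members were named so that each is accounted for, and those with a mean under 1 CPM by name alone. The GC content, count ratios, shares, replicate orders and the choice of sequences were added after the values were seen, as was thinning to equal depth. Replicates differed by more than sampling noise in every group, and none were merged. Coa1 and the mitochondrially encoded subunits were not analysed here. The values of 1 member are not reported here, although counts over the members include it.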

Additional observations from a re-analysis of the deposited data

Results flagged for a closer look

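The effect of FH differed between the models, by the test of the difference itself, for Fh1 and for 1 member of complex I. The rise of Fh1 with FH was 1.13 log2 units larger in ob/ob than in fasted livers (edgeR adjusted p = 0.0267), and it missed the threshold without any of 5 libraries (fasted vector replicate 2, fasted FH replicate 2 or 3, ob/ob FH replicate 2 or 3), with adjusted p of 0.0507 to 0.0723. Between the models, Fh1 was lower in ob/ob livers with the vector (-1.39, edgeR adjusted p = 0.000579) and not called with FH (-0.26, adjusted p = 0.318). For Ndufaf4 the FH effect was lower in ob/ob livers by the test of the difference (-0.73, edgeR adjusted p = 0.028). The libraries on which that call rests are given above. The ob/ob FH libraries also differed from the other 9 in Xist and Y-linked counts, so in either difference sex and FH cannot be told apart.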

How the results depend on the processing

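Scaling was the choice that moved most. On library totals the members called in fasted livers were 4 higher and 20 lower, in ob/ob livers 2 higher and 23 lower, between models with the vector 4 higher and 0 lower, and with FH 4 higher and 2 lower. Estimates changed sign on library totals for 17 of 48 members in fasted and 20 in ob/ob livers. Among the core subunits, assembly factors and Ndufab1, those that did in fasted livers were Ndufv2 (-0.54), Ndufs8 (-0.17), Ndufaf7 (-0.36), Ndufaf8 (-0.44) and Ndufab1 (-0.58). In ob/ob livers those were Ndufv2 (-0.44), Ndufs1 (-0.047), Ndufs3 (-0.086), Ndufs7 (-0.15), Ndufs8 (-0.047), Ndufaf7 (-0.32), Ndufaf8 (-0.60) and Ndufab1 (-0.60). Thinned to equal depth, an alternative chosen after seeing the data, 0 members were lower for the difference and 0 higher between models with FH. Between models with the vector, the lower members were 2 with DESeq2 size factors in edgeR, 3 with DESeq2, 2 without the filter on low counts and 0 with the compared groups alone. Between models with FH, the higher members were 1 with DESeq2, 1 without the filter and 3 with the compared groups alone.

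Without 1 library at a time, members higher and lower ranged over 20 to 27 and 0 to 4 in fasted livers, 18 to 21 and 4 to 8 in ob/ob livers, 0 to 0 and 0 to 1 for the difference, 0 to 2 and 0 to 2 between models with the vector, and 0 to 1 and 2 to 10 with FH. Kept in all such fits were 19 of 25 higher and 0 of 2 lower calls in fasted livers, and 18 of 20 and 4 of 7 in ob/ob livers. Without ob/ob vector replicate 2, ob/ob livers had 21 higher and 6 lower members.

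Replicate numbers did not pair the libraries: 4 of 18 same-numbered pairs had a correlation of deviations over 0.1 (-0.15 to 0.16, against -0.21 to 0.20 for other numbers), and 3 of 12 libraries correlated best with their own number. With the replicate number as a block, fasted livers had 25 higher and 2 lower members, ob/ob livers 20 and 8, the difference 0 and 1, the vector comparison 0 and 2, and the FH comparison between models 1 and 13. With 3 libraries a group, the median SE of a member's log2 fold change was 0.16, and 0.22 for the difference, which sets the size of effect that could be called.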
